A study of Mus musculus with 10 samples.

Results

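MHC class I antigen presentation was followed through 10 genes, chosen as the rows of the deposited count table that carry the symbols H2-K1, H2-D1, H2-T23, B2m, Tap1, Tap2, Tapbp, Nlrc5, Psmb8 and Psmb9. They are 10 of the 55401 genes in the table, and all 10 were measured. RNA came from cells labelled as meningeal lymphatic endothelial cells (LECs), sorted as CD45-CD31+podoplanin+ cells from the dura mater of 3-month-old female mice, labelled C57BL/6 and named C57BL/6J in the paper's methods. The defining LEC markers were near 0 in some replicates, and those of naive replicate 1 are given with the libraries below. The naive group held 5 replicates from unstressed mice, and the SCVS group held 5 replicates from mice given sub-chronic variable stress, in which foot shock, tail suspension and restraint alternated over 6 days. Each replicate was a pool of cells from 3 to 4 animals, tissue of both groups was digested in the presence of the transcription inhibitor actinomycin D, and RNA of both groups was amplified before sequencing. Levels are given as CPM, the count of a gene per 1000000 counts of its replicate, and 3 counts correspond to between 0.213 and 0.3005 CPM at the total counts of 9984743 to 14094155. In such bulk samples, fewer cells of a type and less RNA per cell cannot be told apart.

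MHC class I molecules display peptides from inside the cell to CD8+ T cells, and nearly all nucleated cells carry them. The proteasome cuts proteins into peptides, the TAP transporter carries the peptides into the endoplasmic reticulum, and tapasin bridges TAP to a heavy chain bound to beta-2-microglobulin, which leaves for the cell surface once it has been loaded. Interferon raises the genes of this pathway together, and NLRC5 is the transactivator that acts on a shared set of promoter boxes. LECs are known to present peptide on class I molecules to CD8+ T cells.

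Most of these genes lie together in the MHC on chromosome 17 (GRCm38.p6, RefSeq). Tapbp (33919478 to 33929290) and H2-K1 (33996012 to 34000619) are followed by the cluster of Psmb9 (34182030 to 34187330), Tap1 (34187556 to 34197225), Psmb8 (34198195 to 34201454) and Tap2 (34204479 to 34216321), and further along by H2-D1 (35263094 to 35267497) and H2-T23 (36029977 to 36032701). B2m lies on chromosome 2 (122147687 to 122153082) and Nlrc5 on chromosome 8 (94434335 to 94527272). H2-T23, B2m, Tapbp and Nlrc5 each overlap another RefSeq gene, namely A930015D03Rik, Patl2, Gm19412 and, for Nlrc5, 9330175E14Rik, Gm51584 and Mir7072. Whether the counting used strand is not given in the sources used here, so reads in those overlaps may belong to either gene. Reads of H2-K1, H2-D1, H2-T23 and the H2-Q and H2-T genes may also be split between near-identical copies, so their values are uncertain to that extent.

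The regulatory sequence is shown for the heavy chains and B2m because these genes share a pair of boxes, and for Psmb9 because it shares its upstream sequence with Tap1. RefSeq windows of 250 bases before the listed transcription start were found for 8 of the 10 genes, all but Tap2 and Nlrc5. Capitals mark matches to the kappaB motif bound by NF-kappaB (GGG and, after any 2 bases, TTCCC), to AANNGAAA, a core of the motif bound by interferon regulatory factors, to TGACG, the core of a cAMP response element, and to the CCAAT box, which reads ATTGG on the other strand. All motifs were searched on both strands, and the box pair described next holds a TGACG and a CCAAT match. H2-D1 is shown at chr17:35262844-35263093 (+ strand), B2m at chr2:122147437-122147686 (+ strand) and Psmb9 at chr17:34187331-34187580 (- strand), all from GRCm38.p6. Of H2-K1 only the box pair is shown, at chr17:34000359-34000388 (- strand), since its listed start lies inside the annotated extent of the gene.
H2-D1: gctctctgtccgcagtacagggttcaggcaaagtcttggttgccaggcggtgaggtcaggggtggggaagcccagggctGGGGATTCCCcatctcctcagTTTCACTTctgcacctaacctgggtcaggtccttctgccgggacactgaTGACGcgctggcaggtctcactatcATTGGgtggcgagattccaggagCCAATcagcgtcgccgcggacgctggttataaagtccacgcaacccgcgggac
B2m: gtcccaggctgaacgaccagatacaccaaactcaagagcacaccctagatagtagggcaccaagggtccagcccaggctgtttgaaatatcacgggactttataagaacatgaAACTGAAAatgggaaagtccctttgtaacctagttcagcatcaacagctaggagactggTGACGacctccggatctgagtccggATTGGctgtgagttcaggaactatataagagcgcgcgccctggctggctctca
Psmb9: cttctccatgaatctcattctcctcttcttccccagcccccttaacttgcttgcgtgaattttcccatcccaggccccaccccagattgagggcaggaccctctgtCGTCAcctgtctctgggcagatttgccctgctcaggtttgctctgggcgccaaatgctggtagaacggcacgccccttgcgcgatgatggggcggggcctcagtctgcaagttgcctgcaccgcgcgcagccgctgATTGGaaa
H2-K1 box pair: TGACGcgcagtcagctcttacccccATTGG

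TGACG followed after 20 bases by ATTGG was found upstream of H2-K1, H2-D1 and B2m, and of the class Ib gene H2-M3 among the other pathway genes, against 25 of 27025 promoters in the RefSeq table (0.0925%). It begins 41 bases before the start of H2-K1, 101 before that of H2-D1 and 78 before that of B2m. Over the 30 bases of the pair, H2-K1 and H2-D1 were identical at 23 positions, whereas B2m matched H2-K1 at 13 and H2-D1 at 12. The H2-K1 and H2-D1 windows also share an identical run of 47 bases. The kappaB motif was found upstream of H2-K1 and H2-D1 among the 8 genes (1.44% of all promoters), and also upstream of H2-Q4, H2-Q6, H2-Q7, H2-Aa and H2-Oa. The interferon regulatory factor core was found in 4 of the 8 windows, those of H2-K1, H2-D1, B2m and H2-T23 (21.6% of all promoters), TGACG in 5 (17.9%) and CCAAT in 7 (34.5%), and the Psmb8 window held none of the searched letters. The starts of Psmb9 and Tap1 lie 225 bases apart and point away from each other, so the Psmb9 window also holds the sequence upstream of Tap1. The TGACG and CCAAT matches of these genes are the same sites, counted once for each gene in the numbers above. These motifs were chosen with the sequences in view, and a match describes the letters only.

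**Figure D1:**
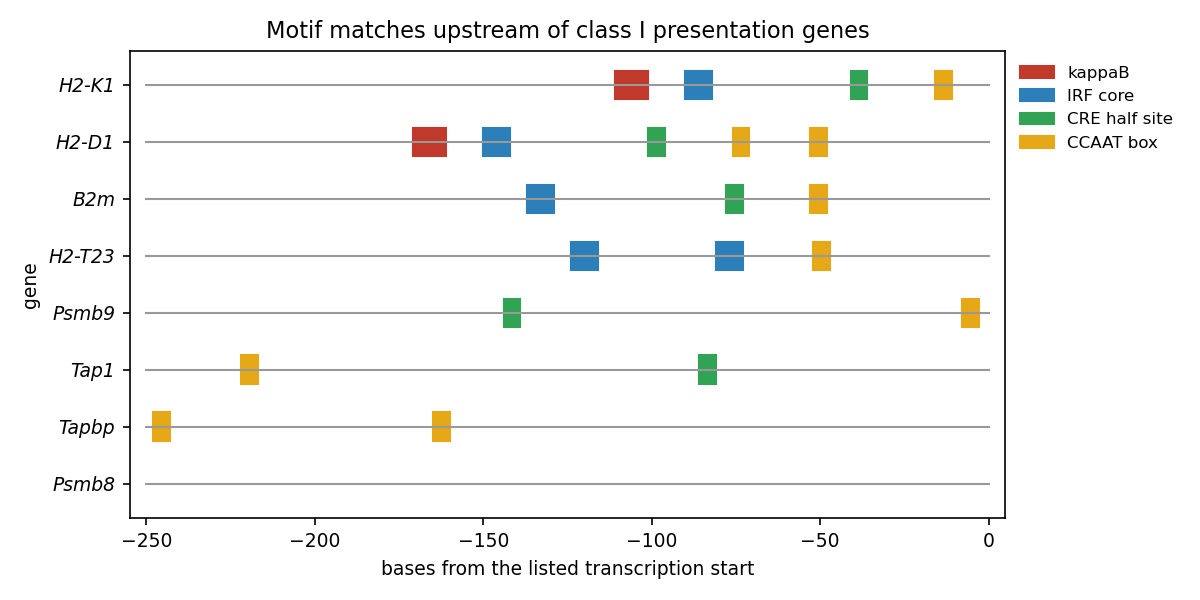
Motif matches in the 250 bases before the listed start of 8 class I presentation genes. The x axis gives bases from the listed transcription start, each grey line is one gene's window, and coloured boxes mark matches on either strand (the kappaB motif, the interferon regulatory factor (IRF) core, the TGACG core of a cAMP response element, CRE, and the CCAAT box). A TGACG box is followed at the same distance by a CCAAT box in H2-K1, H2-D1 and B2m, and the Psmb8 line is empty.

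Libraries differed before any comparison of groups. Naive replicate 5 stood apart. Its correlation with the other 9 replicates (Pearson's r of log2(CPM + 1) across genes, which are not independent replicates) was 0.485 to 0.580, against 0.583 to 0.709 among the other 9. The summed level of 5 pan-endothelial markers (Pecam1, Cdh5, Tie1, Tek and Kdr) was 176 CPM in naive replicate 5 and 1842 to 4013 CPM in the others. A list of 10 olfactory sensory neuron markers, chosen after the data had been seen, summed to 7694 CPM there and to 7.07 to 5021 CPM elsewhere. Of the 3 markers that define LECs most closely, Prox1, Lyve1 and Pdpn, naive replicate 1 held 0, 0.192 and 0 CPM. Its 9 LEC markers summed to 74.4 CPM, against 196 CPM in naive replicate 5 and 471 to 3243 CPM in the others. Blood endothelial markers summed to 5219 to 10273 CPM in all replicates but naive replicate 5 (313 CPM) and were above the LEC markers in each replicate. SCVS replicate 4 held the most class II and macrophage RNA, with 9170 CPM over 12 class II genes (94.2 to 885 CPM elsewhere) and 4416 CPM over 8 macrophage and dendritic cell markers (1.44 to 820 CPM elsewhere). Which cells naive replicates 1 and 5 held is not known. Fold changes and ratios of the 10 genes, and medians of the gene lists, are therefore also given without naive replicate 5. The part of these other markers in any result was not tested.

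No class I gene differed between SCVS and naive beyond the spread between replicates. In edgeR's quasi-likelihood fit of 14815 tested genes, 0 of the 10 passed an adjusted p of 0.1, where 0% of all tested genes did (0 of 14815). At an unadjusted p under 0.05, 0 of the 10 passed, against 460 tested genes (3.1%). DESeq2 called 114 genes (0.769%) and limma-voom 3 (0.0202%), with none of the 10 among them. In the exact permutation test on CPM, 0 of the 10 had an unadjusted p under 0.05, against 561 tested genes (3.79%). For 0 of the 10 did the groups separate in CPM, as they did for 93 tested genes (0.628%). All 10 members passed the filter on low counts. The median log2 fold change of the 10 was 0.18, beside -0.03 over all tested genes, and 9 of the 10 estimates were above 0. Without naive replicate 5, the median was -0.12 (0.03 over all tested genes) and 3 of the 10 estimates were above 0, so most signs changed when that library was left out.

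**Figure D2:**
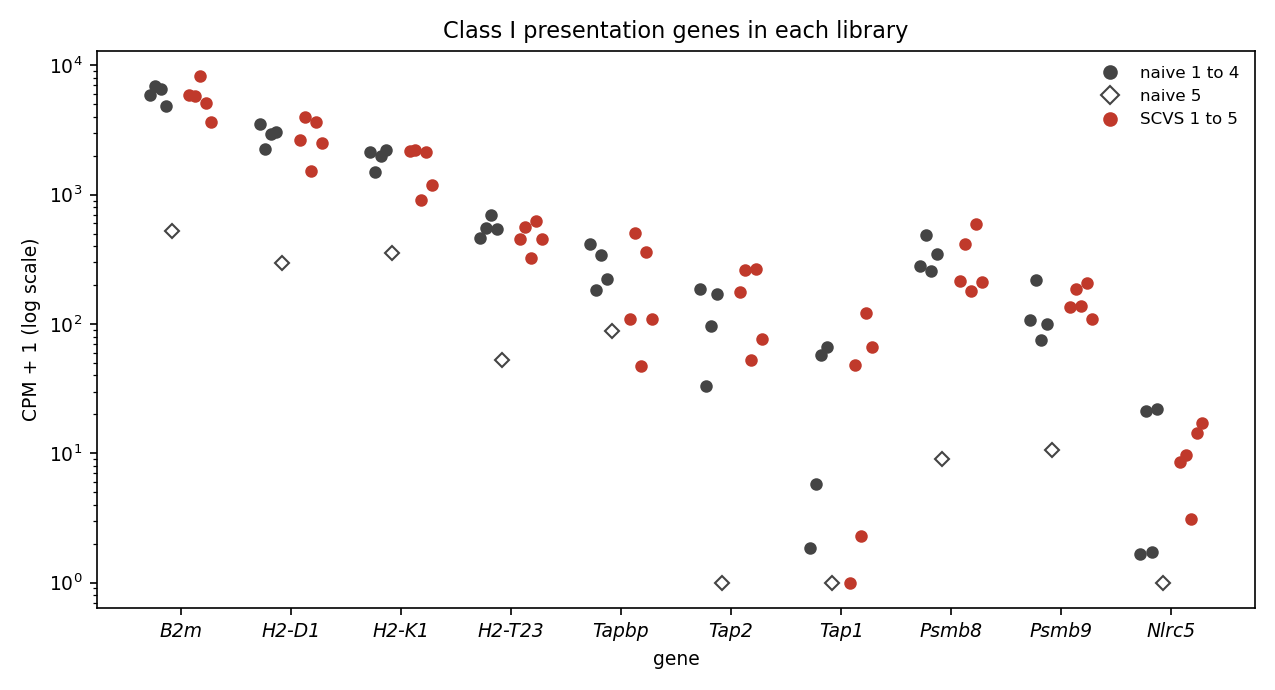
Level of the 10 class I presentation genes in each replicate. The y axis gives CPM + 1 on a log scale, dark points are naive replicates 1 to 4, the open diamond is naive replicate 5 and red points are SCVS replicates 1 to 5. Naive and SCVS points overlap for every gene, and the open diamond is the lowest point of 8 of the 10 genes.

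B2m encodes beta-2-microglobulin, the light chain of every class I molecule, and was the most abundant of the 10 genes. Here and below, values are listed in the order of replicates 1 to 5 of each group. The naive replicates held 5884, 6899, 6590.3, 4884 and 519 CPM, and the SCVS replicates 5950.5, 5834, 8278, 5151 and 3636 CPM. Naive replicate 5 lay far below the rest, and both the highest and the lowest of the other 9 were SCVS replicates, so the groups overlapped. The means were 4955 ± 2598 CPM (SD, n = 5) in naive and 5770 ± 1678 CPM (SD, n = 5) in SCVS (two-sided exact permutation test, p = 0.611). The log2 fold change was 0.18 (SE 0.51, 95% interval -0.94 to 1.31), and -0.10 (-0.62 to 0.41) without naive replicate 5.

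H2-K1 and H2-D1 encode the classical heavy chains K and D, which hold the peptide. H2-D1 stood at 3522, 2238, 2932, 3066 and 294 CPM in naive and at 2645, 3989, 1517, 3654 and 2525 CPM in SCVS. H2-K1 stood at 2148, 1500.4, 1996, 2235 and 350.1 CPM in naive and at 2172, 2221, 913, 2152 and 1184 CPM in SCVS. Both genes were lowest in naive replicate 5 and next lowest in SCVS replicate 3, and the other 8 replicates of the groups overlapped. The means of H2-D1 were 2410 ± 1270 and 2866 ± 983 CPM in naive and SCVS (SD, n = 5 each, exact permutation p = 0.571), with a log2 fold change of 0.19 (SE 0.51, 95% interval -0.92 to 1.30) and of -0.09 (-0.67 to 0.49) without naive replicate 5. The means of H2-K1 were 1646 ± 778 and 1728 ± 628 CPM (exact permutation p = 0.889), with a log2 fold change of 0.01 (SE 0.44, -0.96 to 0.98) and of -0.24 (-0.86 to 0.38) without naive replicate 5. These 3 abundant genes therefore showed no difference that could be told from 0, and the interval without naive replicate 5 lay within 1 log2 unit for each.

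H2-T23 encodes the class Ib molecule Qa-1, which presents peptides from the leaders of other class I chains to the NKG2A receptor. Its naive replicates held 464, 552, 699, 538 and 51.5 CPM and its SCVS replicates 449.5, 566, 324, 626 and 457 CPM. It followed the pattern of the classical chains, with naive replicate 5 lowest and SCVS replicate 3 next. The means were 461 ± 244 and 485 ± 117 CPM (SD, n = 5 each, exact permutation p = 0.873), and the log2 fold change was 0.03 (SE 0.51, 95% interval -1.09 to 1.15), or -0.26 (-0.79 to 0.28) without naive replicate 5.

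The heavy chains were also compared within a replicate, where the scaling of libraries has no part. The log2 ratio of H2-K1 to H2-D1 was -0.71, -0.58, -0.56, -0.46 and 0.25 in naive and -0.28, -0.85, -0.73, -0.76 and -1.09 in SCVS. H2-D1 thus exceeded H2-K1 in 9 of 10 replicates, all but naive replicate 5. The mean ratio was -0.41 ± 0.38 in naive and -0.74 ± 0.29 in SCVS (SD, n = 5 each), a difference of -0.33 (two-sided exact permutation p = 0.151), and the difference was -0.17 (p = 0.317, exact permutation) without naive replicate 5. Leaving out SCVS replicate 1 instead gave -0.45 (exact permutation p = 0.0159, not adjusted over the 4 ratios), so the size of this difference depended on single libraries.

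Tap1 and Tap2 encode the subunits of the TAP transporter, which moves peptides from the cytosol into the endoplasmic reticulum. Tap1 held 0.864, 4.78, 56.2, 65.4 and 0 CPM in naive and 0, 47.1, 1.30, 122 and 64.9 CPM in SCVS, from counts of 0 to 1610. It was at 0 in naive replicate 5 and SCVS replicate 1, at 16 counts or fewer in naive replicate 1 and SCVS replicate 3, and well above the others in 5 replicates of both groups. The means were 25.4 ± 32.5 and 47.0 ± 50.5 CPM (SD, n = 5 each, exact permutation p = 0.540), and the log2 fold change was 0.87 (SE 1.82, 95% interval -3.11 to 4.85), or 0.54 (-3.17 to 4.25) without naive replicate 5. This estimate was the largest of the 10 and had the widest interval.

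Tap2 held 185, 31.9, 95.3, 169 and 0 CPM in naive and 175, 263, 51.8, 266 and 75.4 CPM in SCVS. It was detected in all 5 SCVS replicates and in 4 of 5 naive ones, and the ranges of the groups overlapped. The means were 96.3 ± 81.6 and 166 ± 101 CPM (SD, n = 5 each, exact permutation p = 0.246), with a log2 fold change of 0.71 (SE 1.14, 95% interval -1.79 to 3.21), or 0.39 (-0.95 to 1.74) without naive replicate 5. Tapbp, the gene of tapasin, which bridges TAP and the heavy chain, held 416, 184, 344, 221 and 87.1 CPM in naive and 109, 505, 46.5, 362 and 108 CPM in SCVS. Its 5 SCVS replicates fell into high and low values on either side of the naive mean, and its lowest replicate was SCVS 3. The means were 250.2 ± 130.5 and 226 ± 198 CPM (SD, n = 5 each, exact permutation p = 0.810), and the log2 fold change was -0.25 (SE 0.62, 95% interval -1.61 to 1.11), or -0.46 (-1.81 to 0.89) without naive replicate 5. Tapbp was thus the only member whose estimate lay below 0 with all 10 replicates.

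**Figure D3:**
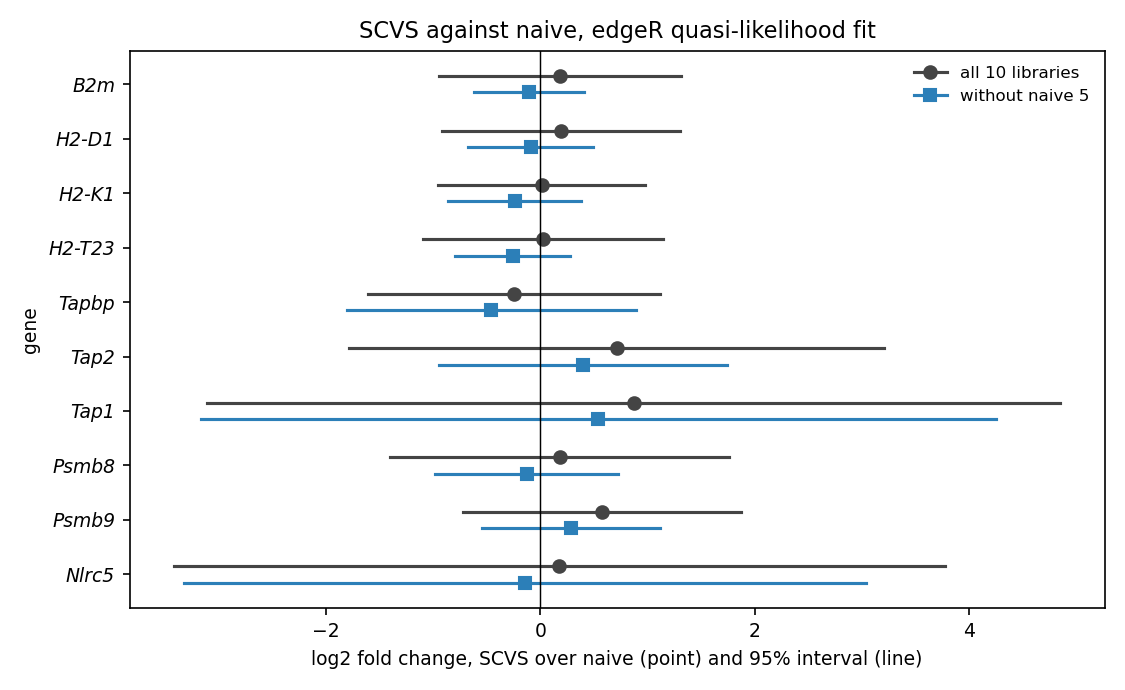
Log2 fold change of SCVS over naive for the 10 class I presentation genes from edgeR's quasi-likelihood fit. Points are estimates, lines are 95% intervals, dark circles use all 10 replicates and blue squares leave out naive replicate 5. Every interval crosses 0, and those of B2m, H2-D1, H2-K1 and H2-T23 are narrowest without naive replicate 5.

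Psmb8 and Psmb9 encode the beta5i and beta1i subunits of the immunoproteasome, which interferon brings in place of the constitutive subunits Psmb5 and Psmb6 and which favours peptides that class I can bind. Psmb8 held 279, 485, 255, 349.5 and 7.95 CPM in naive and 215, 413, 178, 588 and 209 CPM in SCVS. Psmb9 held 106, 216, 74.8, 98.8 and 9.68 CPM in naive and 134, 186, 136, 207 and 108 CPM in SCVS. Psmb9 came nearest to separation, since all 5 SCVS replicates lay above 4 of the 5 naive ones, and naive replicate 2 lay above all 5. The means of Psmb9 were 101 ± 74.7 and 154 ± 40.7 CPM (SD, n = 5 each, exact permutation p = 0.175), with a log2 fold change of 0.57 (SE 0.59, 95% interval -0.72 to 1.87) and of 0.29 (-0.54 to 1.11) without naive replicate 5. The means of Psmb8 were 275 ± 174 and 321 ± 176 CPM (exact permutation p = 0.706), with a log2 fold change of 0.18 (SE 0.72, -1.40 to 1.76) and of -0.13 (-0.98 to 0.72) without naive replicate 5. Without naive replicate 2, the SCVS replicates of Psmb9 all exceeded the 4 naive ones, and the CPM difference of 81.9 had an exact permutation p of 0.0159, unadjusted over genes. The replicate left out there was the naive replicate that lay above all SCVS values. How many of all tested genes separated without it was not counted, so this separation cannot be set against a background share.

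Their ratio to the constitutive subunits was taken within each replicate. The log2 ratio of Psmb8 to Psmb5 was 0.74, 1.58, 1.28, 1.18 and -4.78 in naive and -0.47, 0.80, 0.11, 1.46 and 0.75 in SCVS. Naive replicates 1 to 4 averaged 1.20 ± 0.35 (SD), and naive replicate 5 lay far below every other replicate. The mean difference was 0.53 (SCVS 0.53 ± 0.74, SD, n = 5) with an exact permutation p of 0.929, and -0.67 (p = 0.159, exact permutation) without naive replicate 5. Psmb9 to Psmb6 differed by 0.94 (exact permutation p = 0.246) and by 0.30 (p = 0.484, exact permutation) without naive replicate 5, which stood at -5.02 against -2.49 to -0.67 in the other 9. Psmb10, the beta2i subunit, showed the same pattern to Psmb7, with -1.94 in naive replicate 5 and -0.07 to 2.02 elsewhere. Its group difference was 0.47 (exact permutation p = 0.603), and -0.14 (p = 0.802, exact permutation) without naive replicate 5. None of the 3 immunoproteasome ratios therefore differed between groups beyond their spread.

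**Figure D4:**
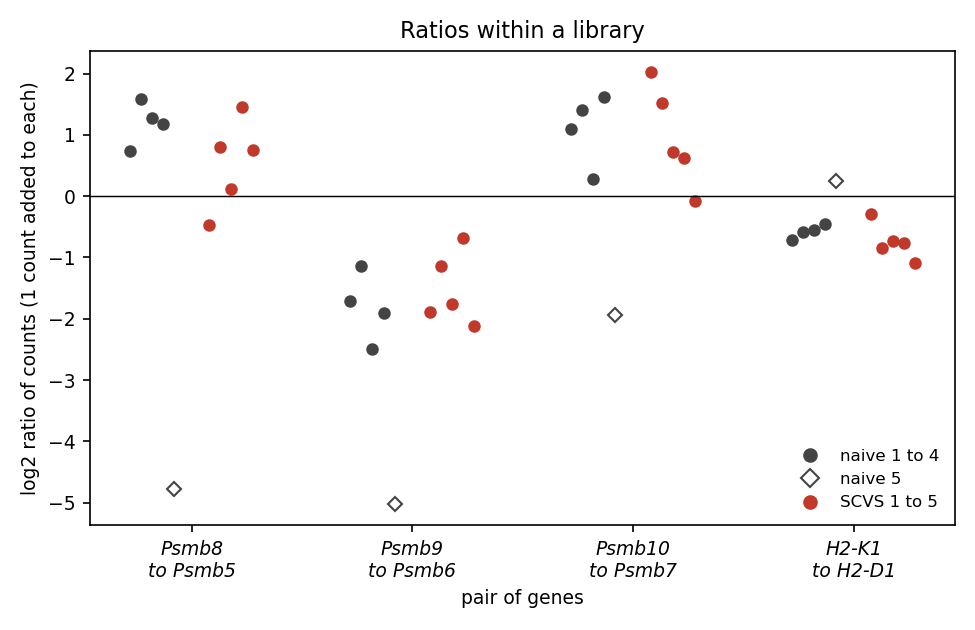
Log2 ratios of counts within each replicate, with 1 count added to each gene. Dark points are naive replicates 1 to 4, the open diamond is naive replicate 5, red points are SCVS replicates 1 to 5. The diamond is lowest for the 3 proteasome pairs and highest for H2-K1 to H2-D1.

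Nlrc5 encodes the class I transactivator. Its counts were 7, 259, 10, 285 and 0 in naive and 107, 106, 26, 178 and 162 in SCVS. These counts correspond to 0.672, 20.3, 0.716, 21.0 and 0 CPM, and 7.59, 8.71, 2.11, 13.5 and 16.2 CPM. The gene thus lay at 10 counts or fewer in 3 of 5 naive replicates and above that in all SCVS ones, while naive replicates 2 and 4 were the highest of all. The means were 8.53 ± 11.1 and 9.62 ± 5.47 CPM (SD, n = 5 each, exact permutation p = 0.802), and the log2 fold change was 0.18 (SE 1.64, 95% interval -3.42 to 3.77), or -0.14 (-3.32 to 3.04) without naive replicate 5.

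Levels were compared between genes per length. Per kilobase of exon (GENCODE M1 lengths, over the 9 replicates other than naive replicate 5), the median was 6842 CPM for B2m, 1133 for H2-D1, 823 for H2-K1, 186 for H2-T23, 102 for Psmb8, 66.9 for Tapbp, 44.7 for Tap2, 36.5 for Psmb9, 8.60 for Tap1 and 1.19 for Nlrc5. The order of neighbours held in all 9 replicates for B2m over H2-D1, H2-D1 over H2-K1, H2-K1 over H2-T23, H2-T23 over Psmb8 and Psmb9 over Tap1, but in 6 of 9 for Psmb8 over Tapbp, Tap2 over Psmb9 and Tap1 over Nlrc5, and in 8 of 9 for Tapbp over Tap2. Ranges did not overlap for B2m against H2-D1 and for H2-K1 against H2-T23. The identifier of Psmb9 is not in M1, so its length was taken by symbol. For H2-T23 the M1 exon length (2889 bases) exceeds the RefSeq span (2725 bases). The values of Psmb9 and H2-T23 per kilobase, and their places in the order, are uncertain to that extent.

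Across the replicates, class I genes were low together in naive replicate 5. The 10 genes summed to 1319 CPM there (0.132% of its counts) and to 8383 to 14032 CPM (0.838% to 1.40%) in the other 9. As a share of the median of the other 9, its value was 8.82% for B2m, 10.0% for H2-D1, 16.3% for H2-K1, 9.56% for H2-T23, 39.5% for Tapbp, 2.85% for Psmb8 and 7.24% for Psmb9, with Tap1, Tap2 and Nlrc5 at 0. It was below all 9 others for 8 of the 10 genes, where 11.1% of tested genes (1642 of 14815) and 31.1% of those with a mean of at least 100 CPM (612 of 1966) were so. All 5 pan-endothelial markers were lowest there too, Pecam1 at 2.27% and Kdr at 15.0%. The constitutive subunits were higher there than the 10 genes by this measure, with Psmb5 at 134%, Psmb6 at 75.2% and Psmb7 at 141% of the median of the other 9. Psmb10 was at 17.5%, and the activator subunits Psme1 (35.3%) and Psme2 (35.5%) were below Tapbp and above the other 9 genes. The part of the low endothelial and high olfactory neuron markers of this library in its low class I levels was not tested.

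**Figure D5:**
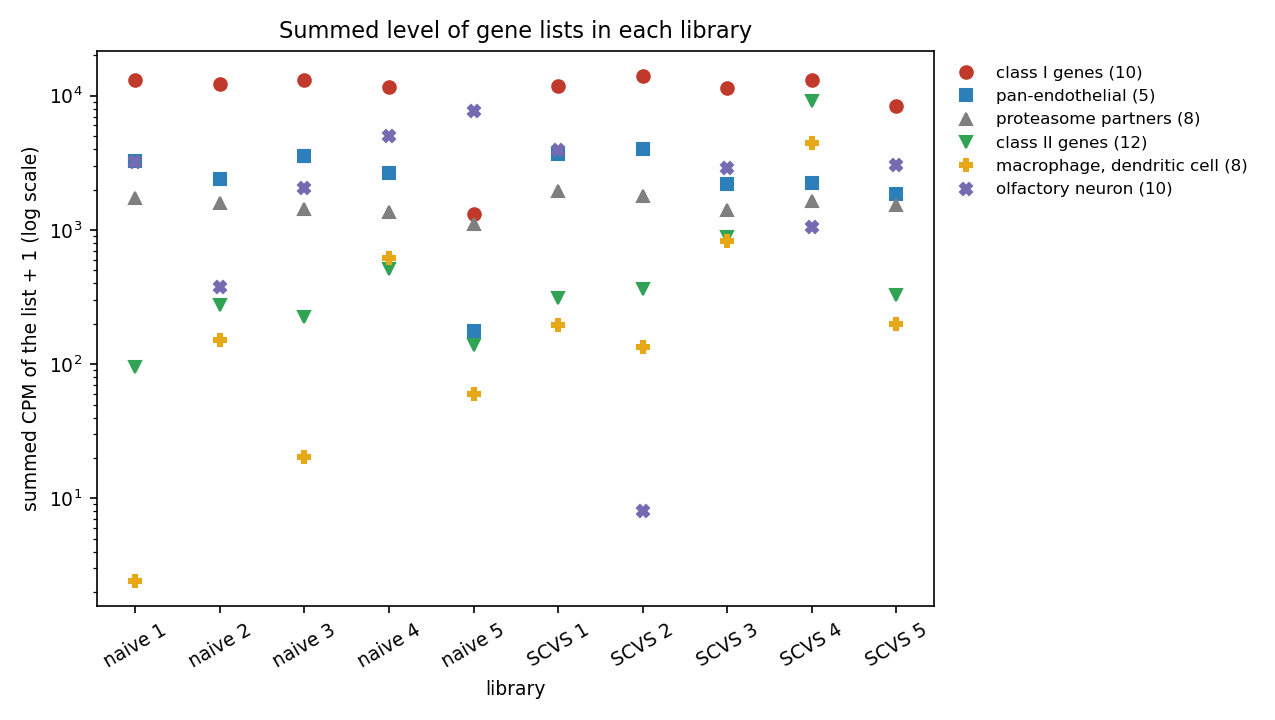
Summed CPM + 1 of gene lists in each replicate, on a log scale, with the number of genes in brackets. In naive 5 the class I genes (red) and pan-endothelial markers (blue) are far below the other replicates and olfactory neuron markers (purple) are highest, while SCVS 4 has the highest class II and macrophage sums.

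No other gene of the pathway passed the threshold in edgeR either, and 0 of those outside class II had an unadjusted p under 0.05. DESeq2 and limma-voom also called 0 of these genes and 0 class II genes, though DESeq2 gave no adjusted p for 4 class II genes and 1 transcription factor or receptor. Of 17 further class Ia and Ib heavy chain genes, 16 were in the table and 9 were tested, and 0 passed (median log2 fold change -0.39, 4 above and 5 below 0, and -0.70 without naive replicate 5). By mean CPM over all 10 replicates, the most abundant of them were H2-Q6, at 111 ± 93.1 CPM in naive and 177 ± 75.6 CPM in SCVS (exact permutation p = 0.246), and H2-T22, at 70.7 ± 37.0 and 102 ± 24.5 CPM (p = 0.167, exact permutation), though H2-Q7 was above H2-T22 by the median of the 9 replicates other than naive replicate 5 (99.1 against 85.7 CPM). Of the class I-like molecules, 0 of 6 passed (median -0.01, or -0.23 without naive replicate 5), and the most abundant was Fcgrt, the neonatal Fc receptor, at 402 ± 209.7 and 393 ± 149 CPM, followed by Hfe at 109 ± 51.2 and 115 ± 34.6 CPM. Of 10 genes of peptide loading and trimming, 0 passed (median -0.03, or -0.05 without naive replicate 5), with Pdia3, the ERp57 of the loading complex, at 592 ± 77.5 and 609 ± 192 CPM and the chaperone Hspa5 at 396 ± 156 and 391 ± 121 CPM. Of 8 partner genes of the proteasome, 0 passed (median 0.16 with 7 above 0, or 0.04 with 4 above 0 without naive replicate 5), with Psmb6 at 386 ± 63.0 and 433 ± 64.9 CPM and the assembly factor Pomp at 303 ± 54.6 and 318 ± 42.9 CPM. Of 22 transcription factors and receptors that act on class I genes, 0 passed (median 0.14 with 15 above 0, or 0.01 with 11 above 0 without naive replicate 5). Ifngr1, a chain of the interferon-gamma receptor, stood at 289 ± 149 and 288 ± 162 CPM. Ifnar2, a chain of the type I interferon receptor, was lower in every SCVS replicate than in naive replicates 1 to 4 (log2 fold change -0.90 with all 10 replicates and -1.19 without naive replicate 5), with naive replicate 5 below all of them. Without naive replicate 5, 1.37% of tested genes had such non-overlapping groups (195 of 14191).

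MHC class II genes, which present to CD4+ T cells, were read from the same fit. Of 12, 10 were tested, 0 passed and 4 had an unadjusted p under 0.05 (H2-Aa, H2-Ab1, H2-Eb1 and Ctss, beside 3.1% of all tested genes; median log2 fold change 2.27, 8 above 0). Without naive replicate 5, the median was 2.17 and H2-Aa no longer had such a p (p of 0.043 with all 10 replicates and 0.071 without, edgeR). H2-Ab1, a class II beta chain, held 0.384, 0.235, 62.2, 31.2 and 0.225 CPM in naive and 87.5, 70.9, 118, 2141 and 94.5 CPM in SCVS. It was the one class II gene whose groups did not overlap (0.628% of tested genes), at 18.9 ± 27.7 against 502 ± 916 CPM (SD, n = 5 each). Its exact permutation p of 0.00794, the smallest that 5 against 5 allows, follows from that lack of overlap and adds no support. The log2 fold change was 4.74 (SE 1.79, edgeR adjusted p = 1.0). Naive replicates 1, 2 and 5 lay near the CPM of 3 counts, so the size of this fold change is uncertain. H2-Ab1 passed the filter on low counts only with the SCVS replicates counted. Cd74, the invariant chain, was at 109 ± 102 and 820.1 ± 1440 CPM (p = 0.238, exact permutation). SCVS replicate 4, where macrophage markers were highest, held 2141 CPM of H2-Ab1 and 3384 CPM of Cd74, and the part of that library in the class II values was not tested. In the other SCVS replicates, H2-Ab1 lay at 70.9 to 118 CPM, above all naive replicates. The macrophage and dendritic cell markers summed to 133 to 820 CPM in those SCVS replicates and to 1.44 to 613 CPM in naive. The part of these markers in the H2-Ab1 values was not tested.

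By marker list, 0 genes passed among 9 LEC markers (median log2 fold change 0.82, or 0.58 without naive replicate 5), 8 blood endothelial (-0.10, or -0.39 without it), 5 pan-endothelial (0.02, or -0.29), 6 fibroblast (-1.87, or -2.17) and 5 mural markers (-1.81, or -2.12). The same held for 4 tested leukocyte (2.57, or 2.47 without naive replicate 5), 6 tested macrophage and dendritic cell (2.81, or 2.53) and 10 olfactory sensory neuron markers (-1.16, or 1.20). Of these markers, Ptprc, Acta2 and Col1a2 had an unadjusted p under 0.05 in edgeR, as did 3.1% of all tested genes. DESeq2 called Ptprc (log2 fold change 7.78) and Acta2 (-4.06), and limma-voom called 0. The 7 leukocyte markers, Ptprc among them, summed to 161 CPM in SCVS replicate 4 and 110 CPM in SCVS replicate 5. Their sum was 0 to 25.8 CPM in the other SCVS replicates and 4.65 to 35.8 CPM in naive. The most abundant marker is given for each list except the pan-endothelial and olfactory ones. It stood, in naive and SCVS, at 499 ± 498 and 1081 ± 768 CPM for Mmrn1 of LECs, 1927 ± 1216 and 2374 ± 1768 CPM for Plvap of blood endothelium, 248 ± 196 and 284 ± 492 CPM for Dcn of fibroblasts and 3082 ± 2433 and 2671 ± 2152 CPM for Rgs5 of mural cells. Lyz2 of macrophages stood at 59.8 ± 113 and 794 ± 1301 CPM, and Coro1a of leukocytes at 3.96 ± 7.47 and 27.2 ± 37.3 CPM. Without naive replicate 5, the groups separated, lower in SCVS, for 2 of these markers, Cldn5 and Col1a2, where 1.37% of all tested genes separated in either direction. The genes whose level most resembled the mean log2(CPM + 1) of H2-K1, H2-D1 and B2m over the 10 replicates, as a description, were Col4a2 (Spearman's rho 0.988), Trim3 (0.976) and Jun (0.964, equal to Alkbh5). Col4a2, a chain of basement membrane collagen, held 5.63 CPM in naive replicate 5 and 58.9 to 389 CPM elsewhere, and that library is 1 of the 10 points. The members varied with a median coefficient of variation of 52.7% over 10 replicates and 39.2% over the 9 without naive replicate 5. All tested genes gave 92.8% and 91.2%, and those with a mean of at least 100 CPM 43.3% and 39.1%.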

How the data were processed

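Replicates were grouped by their labels into 5 naive and 5 SCVS samples, each a pool of 3 to 4 animals. The submitters' processing notes name cutadapt 1.9.1, HISAT2 2.0.1, HTSeq 0.6.1, DESeq2 and GRCm38, while the paper's methods name mm9. Because 58.8% of the 55401 identifiers were found in the mm9 annotation GENCODE M1, coordinates are those of RefSeq on GRCm38.p6. Only exon lengths come from M1. The deposited values are raw counts per gene, made by the authors from amplified RNA with no normalization.

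The filter required over 5 counts in 3 or more of the 10 replicates, and 14815 genes were tested by edgeR 4.0.16 (R 4.3.3), with its quasi-likelihood test after TMM normalization, Benjamini-Hochberg adjustment over all of them and a threshold of 0.1. The adjusted p was 1.0 for all 10 class I genes. CPM were compared by a two-sided exact permutation test over 252 splits, with adjusted p of 1.0 as well. Floors cover counting error only, since reads carry no molecular identifiers. Ratios had 1 count added to each gene. The text names the class I genes, their proteasome partners, genes of the lists past the threshold or with separate groups, the most abundant of each list but the olfactory one (up to 2), and the 3 genes most like H2-K1, H2-D1 and B2m. Alternatives were DESeq2 1.42.0, limma 3.58.1 with voom, other scalings and filters, a replicate block and leaving out each replicate. Tests were run on simulated counts with less spread between replicates than was fitted to these data. That check therefore does not show how many true changes would be found at the spread of these data. The genes, lists and motifs were chosen with earlier results of these data known. Matplotlib 3.10.9 drew the plots.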

Additional observations from a re-analysis of the deposited data

Results flagged for a closer look

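In the naive group, 1 replicate lay far from the other 4 in a pair of ratios, by the gap to its neighbour as a share of the group's range. For the log2 ratio of Psmb8 to Psmb5, naive replicate 5 was lowest at -4.78, and the next value was 0.74 (gap 0.868 of the range). For H2-K1 to H2-D1, naive replicate 5 was highest at 0.25, and the next was -0.46 (gap 0.734). These were 2 of 28 groups examined, and chance flags about 1 in 20. Both fell on the library in which endothelial markers were low and olfactory neuron markers high. The part of those markers in the ratios was not tested.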

How the results depend on the processing

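All member fold changes kept their sign under the other tools, scalings, filters and the replicate block, but limma-voom and the block moved several sizes by over 1.5 times. With all 10 replicates, limma-voom and the block gave log2 fold changes of 1.34 and 1.70 for Nlrc5, 1.83 and 1.47 for Tap2, 0.40 and 0.48 for Tap1, 0.33 and 0.53 for Psmb8, 0.34 and 0.43 for H2-D1, 0.10 and 0.29 for H2-T23 and 0.06 and 0.17 for H2-K1, and the block gave 0.48 for B2m, 0.99 for Psmb9 and -0.45 for Tapbp. Scaling by column totals gave -0.15 for Tapbp, 0.07 for H2-K1 and 0.07 for H2-T23. DESeq2 called 114 genes, DESeq2 without Cook's and independent filtering 123 and limma-voom 3, against 0 in edgeR, and none called a member. The cause was not tested. Deviations of same-numbered replicates were at most weakly related (r = -0.017 to 0.149), where pairs of different numbers gave -0.114 to 0.076. The largest r of all pairs, 0.149, was that of naive replicate 5 with SCVS replicate 5. The fit with a replicate block called 0 genes and 0 members. Leaving out 1 replicate at a time gave log2 fold changes of -0.24 to 0.16 for H2-K1, -0.09 to 0.39 for H2-D1, -0.26 to 0.24 for H2-T23, -0.10 to 0.32 for B2m, 0.10 to 1.54 for Tap1, 0.39 to 1.13 for Tap2, 0.29 to 1.03 for Psmb9, -0.69 to 0.037 for Tapbp, -0.14 to 0.82 for Nlrc5 and -0.19 to 0.47 for Psmb8, with CPM differences of -242 to 286, -73.9 to 793, -78.7 to 83.1, -294 to 1348, -93.9 to 20.7, -1.05 to 4.2 and -21.5 to 97.6 for H2-K1, H2-D1, H2-T23, B2m, Tapbp, Nlrc5 and Psmb8. The ratio differences ran from -0.67 to 0.93 (Psmb8 to Psmb5), 0.30 to 1.27 (Psmb9 to Psmb6), -0.14 to 0.75 (Psmb10 to Psmb7) and -0.45 to -0.17 (H2-K1 to H2-D1). The count of members with separate groups ran from 0 to 1 (Psmb9 without naive replicate 2, where the share of all tested genes was not counted). Chosen after seeing the data, leaving out naive replicate 5 and SCVS replicate 4 gave -0.35 for H2-K1, -0.21 for H2-D1, -0.38 for H2-T23 and -0.07 for B2m. It gave -0.22 for Tap1, -0.73 for Tapbp, -0.30 for Nlrc5 and -0.49 for Psmb8, but 0.13 for Tap2 and 0.15 for Psmb9. Leaving out naive replicates 1 and 5, also chosen after seeing the data, gave estimates on both sides of 0. Those below 0 were -0.18 for H2-K1, -0.32 for H2-T23, -0.10 for B2m, -0.21 for Tapbp, -0.53 for Nlrc5 and -0.20 for Psmb8. Those above 0 were 0.71 for Tap2, 0.24 for Psmb9, 0.15 for Tap1 and 0.03 for H2-D1. Tap1 and Nlrc5 each lay at 16 counts or fewer in several replicates. For Tap1 these included SCVS replicate 1, the deepest library (0 counts of 14094155), and naive replicate 1 (9 counts of 10421467). The part of total depth in these counts was not tested.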
